A study of Mus musculus with 8 samples.

Results

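The regions described here are the ends of mouse long non-coding RNA (lncRNA) genes that stand clear of protein-coding genes. Both annotated ends of every autosomal RefSeq gene of biotype lncRNA were taken on build mm10, each with 1 kb on either side. An end was kept when it lay more than 2 kb from any end of a protein-coding gene. This gave 21571 ends of 11820 lncRNA genes, out of 24816 ends of 12408 autosomal lncRNA genes, and out of 66146 ends when protein-coding genes are counted too. Of these lncRNA genes, 9751 had both ends in the set, and their median length was 8787 bp. Inside a protein-coding gene body lay 5808 of the ends, and 15763 were intergenic.

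The study used NOMe-seq on mouse embryonic fibroblasts (MEFs), primary cells grown from embryos, while Etv2, an ETS-family transcription factor of the endothelial and blood lineages, reprogrammed them. In this assay nuclei are exposed to M.CviPI, a bacterial methyltransferase that methylates cytosines in GpC wherever nucleosomes or bound proteins leave the DNA open, and bisulfite sequencing then reads the mark. The 4 groups were day 1 reprogrammed MEFs with the enzyme (day 1 treated), control MEFs with the enzyme (day 0 treated), day 1 reprogrammed MEFs without it (day 1 untreated) and control MEFs without it (day 0 untreated), with 2 libraries each. All groups are MEFs; the labels name no strain, age or sex, nor how Etv2 was delivered or what share of the cells carried it. A different share of cells and a different degree of opening per cell cannot be told apart in such pools.

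LncRNAs are transcripts that encode no protein. Some act in the nucleus on nearby genes, some bind proteins or are hosts of small RNAs, and most have no known role. Their genes are usually transcribed at low levels and in few tissues, and their starts often lack the CpG islands, stretches rich in CpG and G+C, that mark many protein-coding promoters. Active promoters of either kind are typically free of nucleosomes just upstream of the start, which in NOMe-seq appears as a peak of GpC methylation.

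A strand was known for 9291 of the 12408 autosomal lncRNA genes, from RefSeq promoter sequences of build GRCm38, so that 7679 of the ends could be called starts and 8432 transcript ends, while 5460 stayed without a direction. The promoter sequences run from 250 bases before to 50 after the start. A start was called CpG-rich when its CpG observed over expected ratio was at least 0.6 and its G+C content at least 55%. By this rule 265 lncRNA starts were CpG-rich and 7161 CpG-poor, a CpG-rich share of 3.57%, against 36.3% of the protein-coding starts that could be classed (3576 CpG-rich, 6265 CpG-poor). The remaining 253 lncRNA starts had a promoter sequence that begins elsewhere and were not classed. For the same reason 6616 protein-coding starts were not classed, so the protein-coding share and class values cover only part of the protein-coding starts. CpG-rich lncRNA windows held on average 33.5 GpC dinucleotides and 26.1 CpG at 65.1% G+C, and CpG-poor ones 15.6 GpC and 4.08 CpG at 46.8% G+C.

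The base context of the measured cytosines was read inside these sequences. All 65847 site records that fell in a promoter window, between 6447 and 10189 per library, were GpC cytosines not followed by G. None was a GpCpG cytosine, where GpC and CpG methylation cannot be separated, and none had another context. Sequences of 3 starts of each class are given because the contrast between the classes carries the main pattern below. They were chosen from starts outside the 8 deeply read genes described below and outside 1 autosome that was left out. Of these candidates, 4 CpG-rich and 21 CpG-poor starts had at least 10 treated calls on each day. Those with the most treated calls are shown, a call being 1 read over 1 cytosine. The RefSeq sequences (GRCm38) are written 5′ to 3′ on the gene's strand, and capitals mark the GpC dinucleotides with a call in at least 1 treated library. The CpG-rich windows lie at chr10:22058605-22058904, minus strand, for Gm34267, at chr6:117879383-117879682, plus strand, for Gm38882, and at chr7:116031729-116032028, plus strand, for Sox6os, which starts inside the body of a protein-coding gene.
Gm34267: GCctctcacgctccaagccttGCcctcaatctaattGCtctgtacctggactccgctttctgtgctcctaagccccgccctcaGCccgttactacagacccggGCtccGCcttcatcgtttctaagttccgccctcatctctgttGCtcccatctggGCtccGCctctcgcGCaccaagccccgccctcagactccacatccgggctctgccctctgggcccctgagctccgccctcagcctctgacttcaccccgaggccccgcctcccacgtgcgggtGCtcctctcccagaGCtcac
Gm38882: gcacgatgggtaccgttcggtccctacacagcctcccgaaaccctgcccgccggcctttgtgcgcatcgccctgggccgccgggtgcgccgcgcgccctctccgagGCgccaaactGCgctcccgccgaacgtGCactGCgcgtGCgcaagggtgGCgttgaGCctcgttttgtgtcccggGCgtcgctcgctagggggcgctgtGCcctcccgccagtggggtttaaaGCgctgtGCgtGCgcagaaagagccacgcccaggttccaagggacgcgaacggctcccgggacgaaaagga
Sox6os: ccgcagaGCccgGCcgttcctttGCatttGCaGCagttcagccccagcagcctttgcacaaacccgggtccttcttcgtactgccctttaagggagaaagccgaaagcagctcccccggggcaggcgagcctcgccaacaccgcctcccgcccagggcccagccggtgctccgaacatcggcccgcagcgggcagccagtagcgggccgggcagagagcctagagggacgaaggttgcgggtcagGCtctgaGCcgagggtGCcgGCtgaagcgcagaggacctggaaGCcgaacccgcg

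In these CpG-rich windows each day had calls from 1 library only. Gm34267 had 20% of 15 calls methylated in day 1 treated replicate 2 and 64.0% of 25 calls in day 0 treated replicate 1. Gm38882 had 60% of 15 calls in day 1 treated replicate 2 and 56.5% of 23 calls in day 0 treated replicate 1. Sox6os had 66.7% of 15 calls in day 1 treated replicate 2 and 46.7% of 15 calls in day 0 treated replicate 2. For these 3 starts the exact Clopper-Pearson 95% intervals of the windows spanned 4.33% to 88.2% on day 1 and 21.3% to 82.0% on day 0, and they cover counting error only. These single starts are thus measured too thinly to be compared between days.

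The CpG-poor windows lie at chr6:3182866-3183165, plus strand, for LOC115490388, at chr6:91009727-91010026, plus strand, for Gm38860, and at chr3:122801931-122802230, minus strand, for 4930447N08Rik, which starts inside a protein-coding gene body. LOC115490388 is close to the limit between the classes, with 62.0% G+C and a CpG ratio of 0.572.
LOC115490388: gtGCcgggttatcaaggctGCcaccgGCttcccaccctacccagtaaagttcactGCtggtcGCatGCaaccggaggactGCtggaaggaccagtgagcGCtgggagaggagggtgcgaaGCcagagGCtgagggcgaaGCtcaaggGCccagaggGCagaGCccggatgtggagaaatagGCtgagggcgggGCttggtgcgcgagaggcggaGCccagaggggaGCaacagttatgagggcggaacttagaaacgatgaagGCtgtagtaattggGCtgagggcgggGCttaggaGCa
Gm38860: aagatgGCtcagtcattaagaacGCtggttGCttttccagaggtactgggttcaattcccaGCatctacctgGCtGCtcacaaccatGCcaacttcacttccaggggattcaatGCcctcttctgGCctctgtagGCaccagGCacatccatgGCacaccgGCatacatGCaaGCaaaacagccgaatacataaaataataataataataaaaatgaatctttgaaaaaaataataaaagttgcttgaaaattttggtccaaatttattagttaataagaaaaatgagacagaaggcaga
4930447N08Rik: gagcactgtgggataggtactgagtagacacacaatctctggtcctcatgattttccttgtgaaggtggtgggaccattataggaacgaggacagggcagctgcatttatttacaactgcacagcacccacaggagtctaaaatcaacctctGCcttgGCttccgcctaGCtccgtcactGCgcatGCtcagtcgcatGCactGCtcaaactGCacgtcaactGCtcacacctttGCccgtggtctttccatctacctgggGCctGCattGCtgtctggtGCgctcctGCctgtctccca

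LOC115490388 was read in every library, with 30.0% and 27.9% of calls methylated in day 1 treated libraries, against 30.8% and 31.0% in day 0 treated libraries. Its untreated levels were 0% and 0.971% on day 1 and 2.99% and 0% on day 0. Gm38860 had 55.6% of 9 and 34.6% of 52 calls methylated in the day 1 treated libraries and 26.7% of 15 calls in day 0 treated replicate 1. 4930447N08Rik had 43.4% of 53 calls in day 1 treated replicate 1 and 36.4% of 11 calls in day 0 treated replicate 2. None of the 3 windows separates the days beyond the counting intervals of its calls. The ETS-type letters CCGGAA, searched on both strands, occurred in 22.3% of the 265 CpG-rich and 5.73% of the 7161 CpG-poor lncRNA windows, beside 30.9% and 9.74% of the CpG-rich and CpG-poor protein-coding windows and 13.01% of all 18846 windows. These letters contain a CpG, no other motif was searched, and a match is not a binding site.

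Coverage was thin and uneven. Every deposited cytosine had at least 3 reads, and 84.8% to 86.6% of the sites at lncRNA ends had exactly 3. The lncRNA ends gathered between 47220 and 92730 calls per library, 543427 in all. A library covered 13.98% to 26.5% of the ends, 15815 ends (73.3%) had a call in at least 1 library, 5756 had none, and 36 had calls in all 8. Treated calls were present at 8353 ends on day 1, at 6465 on day 0 and at 3215 on both days. No label states if replicate libraries were separate cultures, and their spread may be technical. Accessibility at the ends of 16 fibroblast marker genes, of which 3 to 7 had treated calls in a library, was 36.8% and 35.5% in day 1 treated libraries, against 51.0% and 56.4% in day 0 treated libraries. At the ends of 16 endothelial marker genes, of which 4 to 7 had treated calls, it was 31.1% and 28.6% in day 1 treated libraries, against 32.6% and 40.3% in day 0 treated libraries. At this depth these lists do not check the cell type, since they read DNA and not RNA.

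GpC methylation at lncRNA ends stood far above the level without the enzyme. With the enzyme, 32.3% and 33.0% of calls were methylated in the day 1 libraries and 31.9% and 31.6% in the day 0 libraries. Without it, the levels were 1.09% and 0.990% on day 1 and 1.90% and 1.87% on day 0. Treated exceeded untreated by 31.6 percentage points on day 1 and by 29.9 on day 0, with no overlap (exact two-sided permutation p = 0.33 each, the smallest that 2 against 2 libraries allow).

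The days differed by little. The treated mean was 32.7% ± 0.436 on day 1 and 31.8% ± 0.221 on day 0 (SD, n = 2 each), a difference of 0.869 percentage points (exact permutation p = 0.33, the smallest possible); for ends over 10 kb from any protein-coding end it was 0.456 points. The untreated mean was 1.04% ± 0.0726 on day 1 and 1.89% ± 0.0241 on day 0, a difference of -0.846 points (exact permutation p = 0.33, likewise the smallest). In neither pair did the libraries of the days overlap. The net level, treated minus untreated, was thus 1.72 points higher on day 1 (exact permutation p = 0.0556, the smallest this design allows). The DNA around the ends, sites 5 to 10 kb away, was also higher on day 1, by 1.25 points in gene bodies (29.98% and 29.99% on day 1, against 28.7% and 28.7% on day 0) and by 1.58 points between genes (30.1% and 30.3% on day 1, against 28.8% and 28.4% on day 0). Over all deposited sites the treated level was 32.0% in each day 1 library, against 31.1% and 31.3% in the day 0 libraries. Unlike the level at the ends, that value has no limit on reads per site and is not restricted to autosomes. With the surroundings also higher on day 1, a difference of this size was not particular to lncRNA ends. Without the enzyme, day 1 minus day 0 in the surroundings was -1.15 points in gene bodies and -1.36 points between genes. Treated minus untreated there was 29.0 points on day 1 and 26.6 on day 0 in gene bodies. Between genes it was 29.2 points on day 1 and 26.3 on day 0. The lower untreated level and the higher net level were thus not particular to lncRNA ends either. Protein-coding ends pooled over all classes were lower on day 1, with 35.7% and 35.2% in day 1 treated libraries, against 37.4% and 36.9% in day 0 treated libraries. That direction was not shared by all of their classes: day 1 minus day 0 was -5.01 points at the centre of protein-coding starts and -7.07 points at the centre of protein-coding ends without a known direction, but 2.29 points at the centre and 2.04 points at the flanks of protein-coding transcript ends (no overlap in these 4 cases, exact permutation p = 0.33 each). Among protein-coding starts with a CpG class, day 1 minus day 0 at the centre was 0.0803 points for CpG-rich starts, where the days overlapped. For CpG-poor starts it was -3.11 points, without overlap, and the pooled value also holds starts without a class. At the flanks of all protein-coding ends the day difference was -0.0320 points, and the days overlapped. The day difference at lncRNA ends minus that at protein-coding ends was 2.56 points (exact permutation p = 0.33, the smallest possible).

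Different ends were read on the days, so the 3215 ends that held treated calls on each of the days were compared with the same weights. Their treated level was 37.2% on day 1 and 34.6% on day 0, a difference of 2.58 points (exact permutation p = 0.33). Without the 8 deeply read genes described below it was 30.9% on day 1 and 29.9% on day 0 over 3205 ends, a difference of 1.05 points. By chromosome, the mean treated level was higher on day 1 on 15 of 19 autosomes, with differences from -1.21 to 2.42 points. The libraries of the days did not overlap on 8 of them, all 8 higher on day 1, and the untreated level was lower on day 1 on 19 of 19. A split without overlap has an exact permutation p = 0.33 on any 1 chromosome. The chromosomes share the same libraries and are not independent, and no such count was made for other regions.

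**Figure D1:**
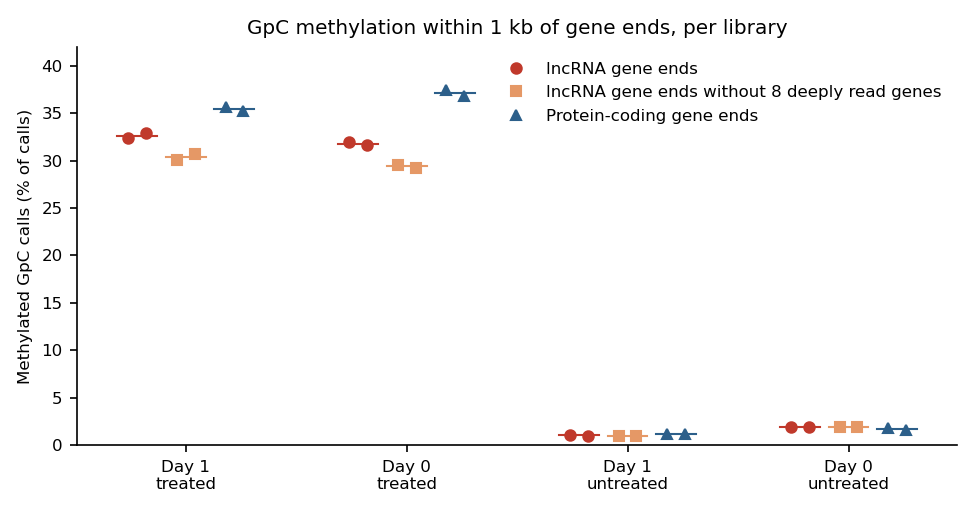
Percent of GpC calls methylated within 1 kb of gene ends (y axis) in each of the 8 libraries (points), by group (x axis), with horizontal lines at group means. Treated lncRNA ends sit between 31.6% and 33.0%, below protein-coding ends at 35.2% to 37.4%, and all untreated values are under 2%.

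A few lncRNA genes held much of the signal. The 8 genes whose cytosines averaged over 5 reads, with calls in all libraries, held 17.6% of all calls at lncRNA ends, and the single most-read end held 7.65%. That end is the transcript end of AY036118 on chromosome 17 (39848112, mm10), where 173 cytosines gathered 41566 calls over the 8 libraries at a mean of 31.6 reads per cytosine and library and at most 71; its start, at 39898385, had none. No lncRNA end had a cytosine above 71 reads, so the limit of 100 reads removed nothing here. At AY036118, 67.9% and 68.4% of calls were methylated in the day 1 treated libraries, against 60.7% and 60.5% in the day 0 treated libraries. Its untreated levels were 1.61% and 1.05% on day 1 and 1.58% and 1.41% on day 0. The treated groups did not overlap, and AY036118 had the highest treated level of the 10 most-read lncRNA genes on both days. Whether its reads come from several copies of the sequence was not tested.

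The other deeply read genes were closer to the pooled level than AY036118, though not all were near it. Gm33862 (chr11:3137076-3139791, mm10) lies inside a protein-coding gene with both ends and held 6.32% of calls; its treated levels were 31.6% and 31.2% on day 1, against 28.1% and 28.6% on day 0. Gm40034 on chromosome 2 had 18.4% and 20.2% in day 1 treated libraries and 18.995% and 18.7% in day 0 treated libraries, with 8463 of its calls at the transcript end and 18 at the start. Gm33862 was higher on day 1 in both libraries, while the days overlapped for Gm40034. Gm41331 on chromosome 15, read almost only at its start, had 23.2% and 20.7% in day 1 treated libraries and 21.5% and 26.3% in day 0 treated libraries. 2700054A10Rik on chromosome 17, also read at its start, had 25.6% and 32.4% on day 1 and 23.6% and 24.3% on day 0 with the enzyme. Gm52771 on chromosome 5 had 29.3% and 36.5% in day 1 treated libraries and 32.5% and 29.4% in day 0 treated libraries. Of these 3 genes, 2700054A10Rik did not overlap between the days, and for the other two the days overlapped. Without the 8 genes the treated level at lncRNA ends was 30.1% and 30.7% on day 1 and 29.6% and 29.2% on day 0.

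**Figure D2:**
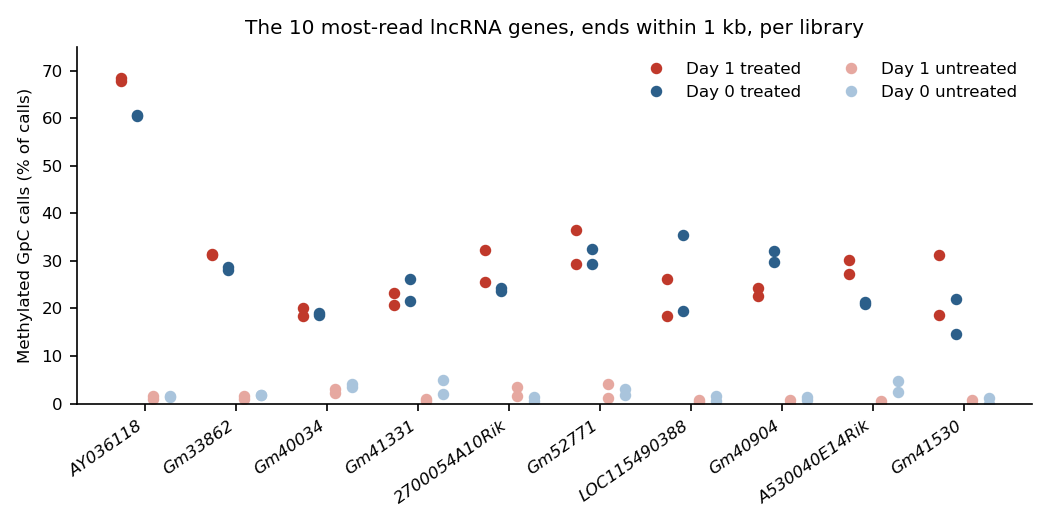
Percent of GpC calls methylated at the ends of the 10 lncRNA genes with the most calls (x axis, most-read first), 1 point per library, by group. AY036118 stands at 60.5% to 68.4% with the enzyme, and the other genes at 14.6% to 36.5%.

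CpG-rich lncRNA starts were more methylated at GpC next to the start than further away in every treated library. The centre (-150 to 50 bp, negative being outside the gene) was set against the flanks (500 to 1000 bp on each side) within each library. At CpG-rich lncRNA starts the centre had 48.5% and 51.3% of calls methylated in day 1 treated libraries and 51.9% and 41.9% in day 0 treated libraries. The flanks had 30.1% and 38.5% on day 1 and 30.6% and 35.04% on day 0. All 4 libraries were higher at the centre, by 14.9 points on average (exact sign-flip permutation p = 0.125, the smallest that 4 libraries allow). These centre values rest on 124 to 345 calls at 12 to 27 starts per library. Without the enzyme the centre had 0.402% and 3.54% on day 1 and 0.840% and 0.820% on day 0. By position, the step at CpG-rich starts was 17.7 and 36.2 points on day 1 and 34.1 and 6.73 points on day 0 between genes. In gene bodies it was 18.1 and -10.4 points on day 1 and 14.2 and 6.16 points on day 0, so that 1 library had no step there. The calls of each library are divided between these positions, so each centre value rests on fewer calls than given above.

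CpG-poor lncRNA starts, the great majority, had no step of that size in any treated library. Their centre had 29.7% and 31.3% in day 1 treated libraries and 28.1% and 33.0% in day 0 treated libraries. Their flanks had 30.5% and 30.6% on day 1 and 29.4% and 27.9% on day 0. The difference was 0.898 points on average and changed sign between libraries (exact sign-flip permutation p = 0.875), from -1.35 to 5.11 points. The step at CpG-rich starts exceeded that at CpG-poor starts by 13.96 points, in 4 of 4 libraries (exact sign-flip permutation p = 0.125). Among ends over 10 kb from any protein-coding end, the step at CpG-rich starts was 9.14 points (exact sign-flip permutation p = 0.375) and its excess over CpG-poor starts 7.30 points (p = 0.5 by the same exact test).

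Both classes of lncRNA starts were less open at the centre than protein-coding starts of the same class. CpG-rich protein-coding starts had 67.9% and 65.9% at the centre in day 1 treated libraries and 67.3% and 66.3% in day 0 treated libraries. The step over the flanks was 16.2 points smaller at CpG-rich lncRNA starts than at CpG-rich protein-coding starts, in 4 of 4 libraries (exact sign-flip permutation p = 0.125). CpG-poor protein-coding starts had 41.4% and 42.5% at the centre on day 1 and 42.7% and 47.5% on day 0 with the enzyme, and the step at CpG-poor lncRNA starts was 11.6 points smaller, in 4 of 4 libraries (exact sign-flip permutation p = 0.125). Over all ends the step was 2.14 points at lncRNA ends (exact sign-flip permutation p = 0.125), 1.58 points without the 8 deeply read genes (p = 0.25 by the same exact test), and 15.6 points smaller than at protein-coding ends (p = 0.125 by the same exact test). The step at lncRNA ends was 1.84 ± 1.36 points on day 1 and 2.45 ± 2.89 on day 0 (SD, n = 2 each), a difference of -0.615 points (exact permutation p = 1).

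**Figure D3:**
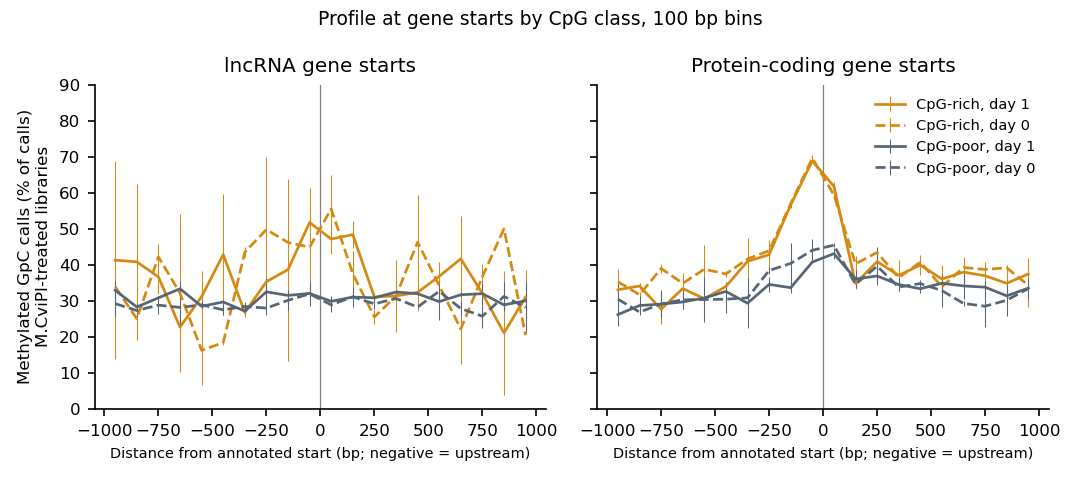
Mean percent of GpC calls methylated in treated libraries (y axis; bars are the SD of 2 libraries) in 100 bp bins by distance from the annotated start (x axis), for lncRNA starts without the 8 deeply read genes (left) and protein-coding starts (right). CpG-rich lncRNA starts reach 51.7% on day 1 and 55.5% on day 0 next to the start, CpG-rich protein-coding starts 68.8% on day 1 and 69.6% on day 0, and CpG-poor lncRNA starts no more than 33.4% in any bin.

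Single starts spread widely within a class. With treated calls of both days pooled, 63 CpG-rich lncRNA starts had at least 6 calls at the centre, with a median of 50% and quartiles of 26.7% and 77.8%. Of these, 29 (46.0%) were above 50%. Among 643 CpG-poor lncRNA starts the median was 31.8%, the quartiles 16.7% and 44.4%, and 95 starts (14.8%) were above 50%. Of 792 CpG-rich protein-coding starts 67.9% were above 50%, and of 618 CpG-poor ones 35.4%. Starts share libraries and have few calls each, so this spread includes counting error.

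**Figure D4:**
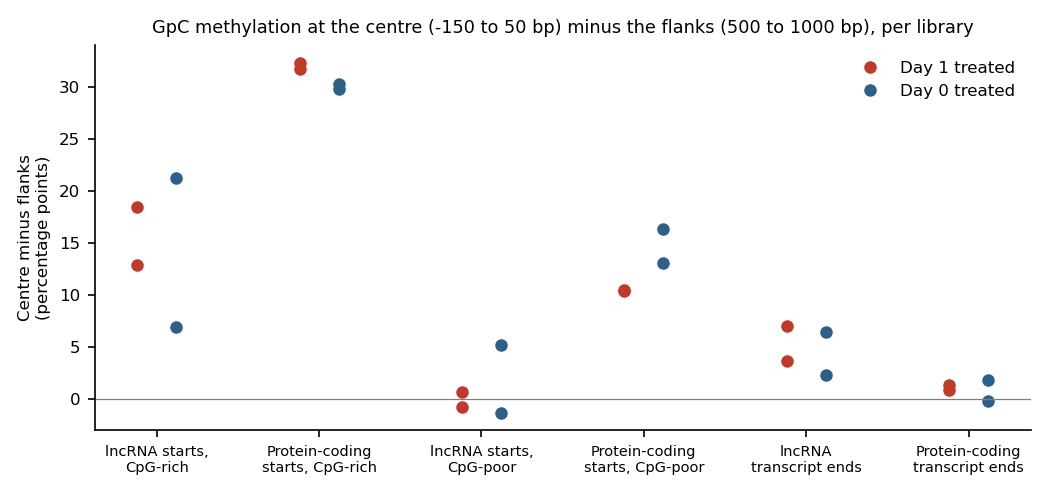
Centre minus flanks in percentage points (y axis) for each treated library (points, day 1 left of day 0 in each class), by class of end (x axis). CpG-rich lncRNA starts run from 6.90 to 21.3 points, below CpG-rich protein-coding starts at 29.8 to 32.3, while CpG-poor lncRNA starts scatter around 0.

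Without the 8 deeply read genes, the 50 bp profile of lncRNA ends had no peak at the same place on both days, inside gene bodies or between genes. Treated bins in gene bodies lay between 26.9% and 33.4% on day 1 and between 25.1% and 35.3% on day 0. Intergenic bins lay between 26.8% and 33.8% on day 1, with 24.5% and 34.7% as the extremes on day 0. The highest bin lay at 0 to 50 bp in gene bodies on day 1 but 950 to 900 bp outside the gene on day 0. Between genes it lay at 300 to 350 bp on day 1 and at 100 to 50 bp outside the gene on day 0. No bin was highest on both days in either class.

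**Figure D5:**
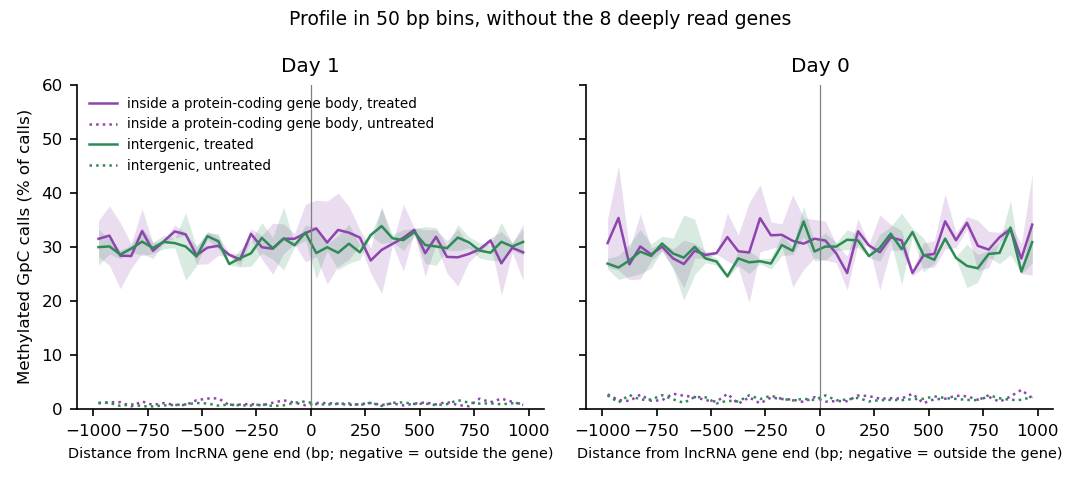
Mean percent of GpC calls methylated (y axis) in 50 bp bins by distance from the lncRNA gene end (x axis), for ends inside protein-coding gene bodies and intergenic ends, without the 8 deeply read genes. Solid lines are treated libraries with the SD of 2 libraries as a band, dotted lines untreated libraries; treated bins stay between 24.5% and 35.3% and untreated bins at or below 3.56%.

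Ends in gene bodies were pooled lower than intergenic ends, but only with AY036118 included. In gene bodies 30.5% and 30.8% of calls were methylated in day 1 treated libraries and 30.1% and 29.7% in day 0 treated libraries. Between genes the levels were 33.3% and 34.1% on day 1 and 32.9% and 32.6% on day 0. Gene bodies minus intergenic was -2.93 points, with the same sign in 4 of 4 libraries (exact sign-flip permutation p = 0.125, the smallest possible). Without AY036118 the difference was 1.01 points, and without all 8 deeply read genes 0.695 points (p = 0.25 by the same exact test). Gene-body ends then had 30.3% and 30.7% on day 1 and 30.5% and 30.0% on day 0 with the enzyme. Intergenic ends had 30.0% and 30.7% on day 1 and 29.1% and 28.9% on day 0, so that the classes were at most 1.41 points apart in a treated library. The step from flanks to centre was 1.38 points smaller in gene bodies than between genes (exact sign-flip permutation p = 0.5). That difference was 0.0488 points in the other direction without the 8 genes.

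The contrast between starts and transcript ends also turned on these genes. Starts had 31.2% and 30.9% in day 1 treated libraries and 29.4% and 29.8% in day 0 treated libraries, and transcript ends 34.9% and 36.1% on day 1 and 35.2% and 34.7% on day 0. Starts minus transcript ends was -4.89 points, in 4 of 4 libraries (exact sign-flip permutation p = 0.125), but 1.46 points without AY036118 and 1.41 without the 8 genes. LncRNA ends exceeded their surroundings, sites 5 to 10 kb away of the same position class, by 2.84 points (exact sign-flip permutation p = 0.125), and by 0.0489, 0.502, 0.778 and 0.739 points in the 4 treated libraries without the 8 genes. Outside AY036118 and the other deeply read genes, the ends as a whole were thus within 1 point of the DNA around them.

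The distance from the nearest protein-coding end went with small differences. Without the 8 genes, ends at 2 to 5 kb had 31.4% and 31.4% in day 1 treated libraries and 29.6% and 31.2% in day 0 treated libraries, and ends over 100 kb away had 28.2% and 28.9% on day 1 and 29.2% and 27.4% on day 0. The farthest ends were lower than the nearest in each treated library. LncRNA ends just over the limit (2 to 2.5 kb, 411 ends) had 31.5% and 33.1% on day 1 and 30.8% and 27.0% on day 0 with the enzyme, and the 483 lncRNA ends just under it (1.5 to 2 kb, not in the set) had 32.3% and 34.2% on day 1 and 35.3% and 34.4% on day 0. Gene length went with little difference once the 8 genes were left out. Genes under 2 kb had 30.5% and 32.4% in day 1 treated libraries and 30.1% and 30.0% in day 0 treated libraries, and genes over 50 kb 29.9% and 29.1% on day 1 and 28.4% and 29.2% on day 0. Genes with predicted-model names beginning in Gm had 29.8% and 30.8% on day 1 and 29.4% and 29.1% on day 0, and genes with a symbol of another kind, such as the well-studied lncRNAs, 31.6% and 29.5% on day 1 and 30.2% and 33.8% on day 0.

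No lncRNA gene passed the test for a change in accessibility between the days. The calls of both ends were summed per gene, log2((methylated + 1)/(unmethylated + 1)) was fitted in limma over all 118 lncRNA and protein-coding genes with at least 20 calls in every treated library, and p-values were adjusted over all of them. None of the 118 was called at an adjusted p under 0.05 (0%), and so none of the 23 lncRNA genes among them; 1 of the 23 had an unadjusted p under 0.05 by limma and 1 by edgeR, beside 3.39% and 8.47% of all genes. Of the 23, 15 had higher and 8 lower odds on day 1, and the median log2 odds change was 0.18, the same as the 0.18 over all genes tested. The gene with the unadjusted p under 0.05 was AY036118, with a log2 odds change of 0.48 (SE 0.20, limma adjusted p = 0.855). Leaving out either day 1 untreated library brought its limma adjusted p to 0.00274 (without replicate 1) and 0.00333 (without replicate 2), although those libraries do not enter its contrast other than through the shared estimate of spread.

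Among the next genes by p, Gm39123 (chr8:4656156-4664806, mm10, intergenic) had 42.1% and 59.4% of 95 and 106 calls methylated in day 1 treated libraries, against 24.3% and 33.8% of 70 and 77 calls in day 0 treated libraries (log2 odds change 1.31, SE 0.74, limma adjusted p = 0.855). It is among the deeply read genes, and the libraries of its days did not overlap. Gm33862 had a log2 odds change of 0.21 (SE 0.20, limma adjusted p = 0.964). Toward lower values, Gm40904 (chr13:12925762-12932245, mm10, intergenic) had 22.6% and 24.4% in day 1 treated libraries and 29.8% and 32.0% in day 0 treated libraries (log2 odds change -0.53, SE 0.61, limma adjusted p = 0.964), and the days did not overlap either. Gm39123 and Gm40904 were picked by their rank in p for the day change, so this separation adds no support. The share of all fitted genes without overlap was not counted. The other genes named by rank had limma adjusted p = 0.964 as well. They were A330032B11Rik and 9330102E08Rik toward higher odds, and Gm52869, Gm34414, Gm38708 and LOC115490388 toward lower odds. A330032B11Rik and 9330102E08Rik were fitted without 1 untreated library that had no call there, and Gm52869 without 2. In day 1 treated libraries A330032B11Rik had 41.3% and 70.6% and 9330102E08Rik 40.9% and 38.3%, against 45.8% and 33.3% for A330032B11Rik and 27.7% and 24.1% for 9330102E08Rik in day 0 treated libraries.

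Without the enzyme no lncRNA gene passed either. Of 825 genes with at least 10 calls in every untreated library limma called 0 (0%), and 7 of the 107 lncRNA genes had an unadjusted p under 0.05 by limma and 4 by edgeR, which also called 0. These are 6.54% and 3.74% of the lncRNA genes, beside 3.39% by limma and 1.21% by edgeR of all 825 genes. The untreated level was lower on day 1 for 74 and higher for 33 of the 107, with a median log2 odds change of -0.33, beside -0.19 over all 825 genes. The smallest limma adjusted p among them was 0.458, shared by Gm41331, at 0.742% on day 1 and 3.48% on day 0, and A530040E14Rik, at 0.240% on day 1 and 3.55% on day 0 (means of 2 untreated libraries). For the difference between treated and untreated change, 38 genes had at least 20 calls in every library, of which limma called 1 (2.63%) and edgeR 0, with 5 of the 11 lncRNA genes at an unadjusted p under 0.05 by limma and 4 by edgeR, beside 10 and 7 of all 38 genes (26.3% and 18.4%). The 1 gene was A530040E14Rik (chr1:85106093-85114038, mm10), whose start lies inside a protein-coding gene. Its fitted log2 odds change was 3.19 (SE 0.68, limma adjusted p = 0.0171, edgeR adjusted p = 0.181). Its treated levels were 27.3% and 30.1% on day 1, against 21.0% and 21.4% on day 0, and its untreated levels 0% and 0.481% on day 1, against 4.65% and 2.44% on day 0. The day 0 untreated values rest on 43 and 41 calls. No call was made under edgeR, with each library centred on its median, or without any 1 of the 4 treated libraries.

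Well-studied lncRNAs were hardly covered. Of a list of 95 such names 69 had an end in the set, 26 of them had treated calls on both days, and 8 had no call in any library. Pooled over the 69, 32.3% and 37.6% of 415 and 407 calls were methylated in day 1 treated libraries, against 32.0% and 45.2% of 435 and 279 calls in day 0 treated libraries, so the days overlapped. Untreated levels were 0.855% and 0.438% on day 1 and 1.47% and 1.48% on day 0. Only 10 had at least 10 treated calls on each day, and their pooled levels are given with exact Clopper-Pearson 95% intervals, which do not include the spread between libraries.

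Lncpint, a p53-induced transcript, had 63.3% of 30 calls on day 1 (43.9% to 80.1%) and 18.5% of 27 calls on day 0 (6.30% to 38.1%) with the enzyme. Its libraries had 77.8% of 9 and 57.1% of 21 calls on day 1, against 20.8% of 24 and 0% of 3 calls on day 0, without overlap. Pvt1, the neighbour of the Myc proto-oncogene, had 26.7% of 30 calls on day 1 (12.3% to 45.9%) and 75% of 36 calls on day 0 (57.8% to 87.9%). Its libraries were at 66.7% and 16.7% on day 1, against 46.7% and 95.2% on day 0, and overlapped. Trp53cor1, known as lincRNA-p21 and another p53 target, had 27.5% of 40 calls on day 1 and 48.7% of 39 calls on day 0, with libraries at 33.3% and 24.0% on day 1, against 55.6% and 46.7% on day 0. The days did not overlap for Trp53cor1, but its counting intervals did (14.6% to 43.9% on day 1, 32.4% to 65.2% on day 0). Its treated libraries had 9 to 30 calls each.

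Bvht, known as Braveheart and required for cardiovascular commitment of mouse embryonic stem cells, had 45.8% of 24 calls on day 1 and 27.8% of 18 calls on day 0, each from replicate 1 alone. Peg13, an imprinted transcript inside Trappc9, had 11.1% of 18 calls on day 1 and 41.3% of 75 calls on day 0. Neither gene's intervals for the days were apart. Of the small nucleolar RNA hosts, Zfas1 had 41.7% of 24 calls on day 1 and 33.9% of 59 calls on day 0, and Snhg3 50% of 26 calls on day 1 and 33.3% of 18 calls on day 0. Snhg20 had 44.4% of 27 calls on day 1 and 51.9% of 27 calls on day 0. The intervals of these 3 hosts overlapped between days. Halr1, beside the Hoxa genes, had 44.4% of 18 calls on day 1 and 44.4% of 36 calls on day 0, and Six3os1, opposite Six3, 30.6% of 49 calls on day 1 and 27.8% of 18 calls on day 0. Only 1 treated library held the calls for Snhg3 on each day, and for Peg13, Snhg20 and Halr1 on day 1. For Zfas1 and Six3os1 the same held on day 0. Without the enzyme all 10 were at 0%, except Peg13 at 1.89% of 53 calls on day 0; those with calls had between 3 and 54 calls per day, and 0 of 54 at Pvt1 on day 1 allows up to 6.60% by the same kind of interval. Sites at one gene share reads, so differences between single genes at this depth are not results on the days, and none was tested here because too few calls were present.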

How the data were processed

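GpC methylation was measured by NOMe-seq in 8 libraries of mouse embryonic fibroblasts. The deposited files, on build mm10 per the submitters' processing notes, list cytosines with a methylated fraction, which the authors rounded to 2 decimals, and a deposited read count. Neither column has a header. The units were read from the values, since fraction times count was whole within rounding at 100% of sites. Not given in the sources used here are the aligner, the caller, the conversion rate and how duplicates were treated. Uncorrected duplicates would make counting intervals too narrow.

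Methylated reads were taken as the rounded product. Calls were pooled per library over autosomal sites of at most 100 reads within 1000 bp of an end, each site going to its nearest lncRNA end, and sites near ends of protein-coding genes were taken the same way. Gene coordinates, strands and promoter sequences came from RefSeq (GRCm38.p6). The RefSeq promoter table matched 9291 of 12408 lncRNA genes by gene identifier.

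Exact two-sided permutation tests compared library levels, and within-library contrasts with exact sign-flip permutation tests over the 4 treated libraries (smallest p 0.125). Genes were fitted with limma 3.58.1 in R 4.3.3, a mean per group over all 8 libraries, trended on coverage, with Benjamini-Hochberg adjustment at 0.05 and a prior of 1 call; the quasi-likelihood test of edgeR 4.0.16 on both kinds of counts was the alternative. A library without calls at a gene was dropped from that gene's limma fit. The fits were also run on simulated counts with large planted changes, which does not show their power for smaller changes. Pooling used Python 3.11.15.

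Members, lists and tests were chosen with earlier results of these data known. Named genes are the 5 fitted lncRNA genes with the smallest limma p in each direction, the 10 with the most calls among those with at least 5 calls in every library, and well-known lncRNAs with at least 10 treated calls on each day. The alternatives were no upper limit or 10 reads per site, at least 4 reads per site, equal weights per site, averaging by chromosome, 500 bp windows, a centre of -100 to 100 bp, distances over 5 and 10 kb, the replicate block, and each library left out. Another 3 were chosen after seeing the data: leaving out the 8 deeply read genes, leaving out AY036118, and genes with both ends over 2 kb away. The contrasts by CpG class and by kind of end, and that of the day difference with protein-coding ends, were also added after seeing the data. Replicates share numbers only, and no pairing is stated.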

Additional observations from a re-analysis of the deposited data

Results flagged for a closer look

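The pooled treated level differed between the days in opposite directions at lncRNA ends and at protein-coding ends. At lncRNA ends day 1 minus day 0 was 0.869 percentage points, and both day 1 treated libraries (32.3% and 33.0%) were above both day 0 treated libraries (31.9% and 31.6%). At protein-coding ends it was -1.69 points, and both day 1 treated libraries (35.7% and 35.2%) were below both day 0 treated libraries (37.4% and 36.9%). The difference between the 2 changes was 2.56 points (exact permutation p = 0.33, the smallest that 2 against 2 libraries allow). Protein-coding starts pooled over classes were lower on day 1 (-5.01 points at the centre and -2.05 at the flanks). Of the classed starts, the centre was lower at CpG-poor ones (-3.11 points) but not at CpG-rich ones (0.0803 points, days overlapping). The centre of protein-coding ends without a known direction was lower as well (-7.07 points). Protein-coding transcript ends were higher on day 1 like lncRNA ends (2.29 points at the centre and 2.04 at the flanks), and so was the DNA 5 to 10 kb from lncRNA ends (1.25 points in gene bodies and 1.58 between genes). The difference between lncRNA and protein-coding ends kept its sign under all 15 alternatives run, between 2.02 and 5.62 points. The libraries of the days also read different ends, and the part of that in the difference was not tested.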

How the results depend on the processing

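The 19 results given as pooled levels were recomputed under 290 alternatives, of which 276 kept the direction and 14 did not; 14 results kept it throughout. Without sites over 10 reads, gene bodies minus intergenic was 0.642 points in level and 0.766 in the step from flanks to centre, and starts minus transcript ends 1.31 points. With every site weighted equally these were 0.174, 0.0132 and 0.559 points, and without the 8 deeply read genes 0.695, 0.0488 and 1.41 points. Without AY036118 the levels were 1.01 points for gene bodies minus intergenic and 1.46 for starts minus transcript ends. Leaving out 1 library at a time, the day difference in the step ranged from -2.66 to 1.43 points, reversing without day 1 treated replicate 1 (0.348) and day 0 treated replicate 2, and the step at CpG-poor starts from -0.506 to 1.65, reversing without day 0 treated replicate 2. The step at CpG-rich starts ranged from 12.7 to 17.5 points.

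At sites of at least 4 reads the treated day difference was 1.67 points. Counts of called lncRNA genes were 0 to 1 for accessibility and 0 to 1 for the untreated level when 1 library was left out; AY036118 was the 1 called for accessibility without either day 1 untreated library, and Gm33862 the 1 for the untreated level without day 1 untreated replicate 1. For the net change the count was 0 to 3: it was 0 without any 1 treated library, 3 without either day 1 untreated library and 2 without day 0 untreated replicate 1. It was 0 by edgeR, with at least 5 calls per library, and with each library centred on its median.

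With the replicate block the treated day difference stayed at 0.869 points (exact permutation p = 0.5) and the counts of called genes at 0, 0 and 1. Replicate deviations correlated across genes, which are not independent replicates, with r = 0.122 between the treated days and -0.0187 between the untreated days, so the numbers were not taken as pairs. Depth limits the values of single ends, since most sites had 3 reads and 36 of 21571 ends had calls in all libraries. The exact permutation of 2 against 2 libraries cannot reach a p under 0.33.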
